A study of Danio rerio with 18 samples.

Results

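The effect of ablating the retinal pigment epithelium (RPE) was measured as a single difference between ablated and unablated zebrafish larvae over 3 times, joined in a single comparison by gene identifier. All 18 libraries of the series entered it, 9 from ablated (MTZ+) and 9 from unablated (MTZ-) larvae, with 3 of each kind at 2, 4 and 7 days post-injury (dpi). Ablated larvae had been given 10 mM metronidazole for 24 h, beginning at 5 days post fertilisation (dpf), and unablated larvae had not. Larvae of both kinds had been kept in 1.5X phenylthiourea, a blocker of melanin synthesis, between 0.25 and 5 dpf. For each library at most 1000 cells with green fluorescent protein (eGFP) were sorted from dissociated eyes and their RNA was amplified with SMART-Seq v4. The labels call these cells RPE. No source used here gives the transgene, its promoter, the strain or how many larvae made up a library. No group was given the drug without losing RPE, so effects of metronidazole and of ablation cannot be told apart. In these bulk libraries, fewer cells of a type and less RNA per cell cannot be told apart either.

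The RPE is the pigmented epithelium behind the photoreceptors. It recycles the visual chromophore, takes up shed outer segments, carries nutrients and ions between blood and retina, and seals that boundary with its junctions. Zebrafish, unlike mammals, regrow the layer after it is lost, and the comparison asks which genes differ in sorted cells after injury whatever the day. Metronidazole kills cells that carry a bacterial nitroreductase, an enzyme that turns the drug toxic; whether that system was used here is not stated in the labels.

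Total counts lay between 21.9 M and 60.4 M (megareads) in ablated libraries and between 25.1 M and 54.0 M in unablated libraries, and the difference did not pass an exact two-sided sign-flip permutation test over the 9 pairs (p = 0.867). The share of counts from mitochondrially encoded genes was 3.63 to 11.5% in ablated and 4.00 to 12.8% in unablated libraries (exact permutation p = 0.625, where the smallest possible p is 0.0039). A count of 0 in a library allows a level of up to 0.15 CPM (a count scaled to its library's total) in ablated and up to 0.135 CPM in unablated libraries, by counting error alone. The RPE genes rpe65a and rlbp1b were present at 3665 CPM or more in all 18 libraries. Each ablated library was paired with the unablated library of the same time and replicate number, whose deviations from the group means ran together (r = 0.187 to 0.593 across genes). The sequencing name of unablated 4 dpi replicate 1 reads as positive, which its description corrects to MTZ-. Its label was followed, and results without its pair are given where they differ. Whether replicates were separate clutches is not stated in the labels. The p-values of fits that use the pairs rest on how much the differences within pairs vary from pair to pair. That variation may be technical.

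Of 20093 genes tested, 3249 (16.2%) differed between ablated and unablated libraries at an adjusted p under 0.05, and these are the genes named as called below. All such p-values are from edgeR's quasi-likelihood test with Benjamini-Hochberg adjustment over all tested genes, in a fit that holds the 9 pairs, and thereby time, as blocks. Of the called genes 1691 (8.42% of tested genes) were higher and 1558 (7.75%) were lower in ablated libraries. The difference ran the same way in all 9 pairs for 1654 of the 3249 called genes, where 1874 of all tested genes (9.33%) did so. The sign was the same at each time for 3171 of the called genes and for 8819 of the 20093 tested genes. Genes called higher had median log2 changes of 1.35, 1.18 and 0.67 at 2, 4 and 7 dpi, and genes called lower had falls of median size 1.29, 1.22 and 0.77. In single pairs, 96.3 to 98.5% of called genes differed in the common direction at 2 and 4 dpi and 84.4 to 87.8% at 7 dpi. Because the genes were called from these same pairs, such shares are a description and not a test.

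The number of calls depended on the time points that entered the fit. Without the 4 dpi libraries 128 genes (0.693%) were called, without those of 2 dpi 1199 (6.2%), and without those of 7 dpi 4181 (21.8%). Of the 3249 called genes, 126, 1039 and 2786 were among these. Without the pair of 4 dpi replicate 1, which holds the library with the corrected name, 2181 genes were called. Without the pairs as blocks 1273 genes (6.34%) were called, 1231 of them among the 3249. A smaller set was therefore kept in view, the 118 genes (0.587%) that were called in the same direction also when each time was left out in turn. Of this retained set 59 were higher and 59 lower. All 118 were called again when any single pair was left out, and 112 when the pairs were not used as blocks. The set was chosen by fits that left out whole times. Its calls without single pairs and its directions at each time are therefore a description and not a test. The retained genes that were higher had median log2 changes of 2.23, 2.23 and 1.55 at 2, 4 and 7 dpi, and those that were lower had falls of median size 1.75, 1.86 and 1.39.

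**Figure D1:**
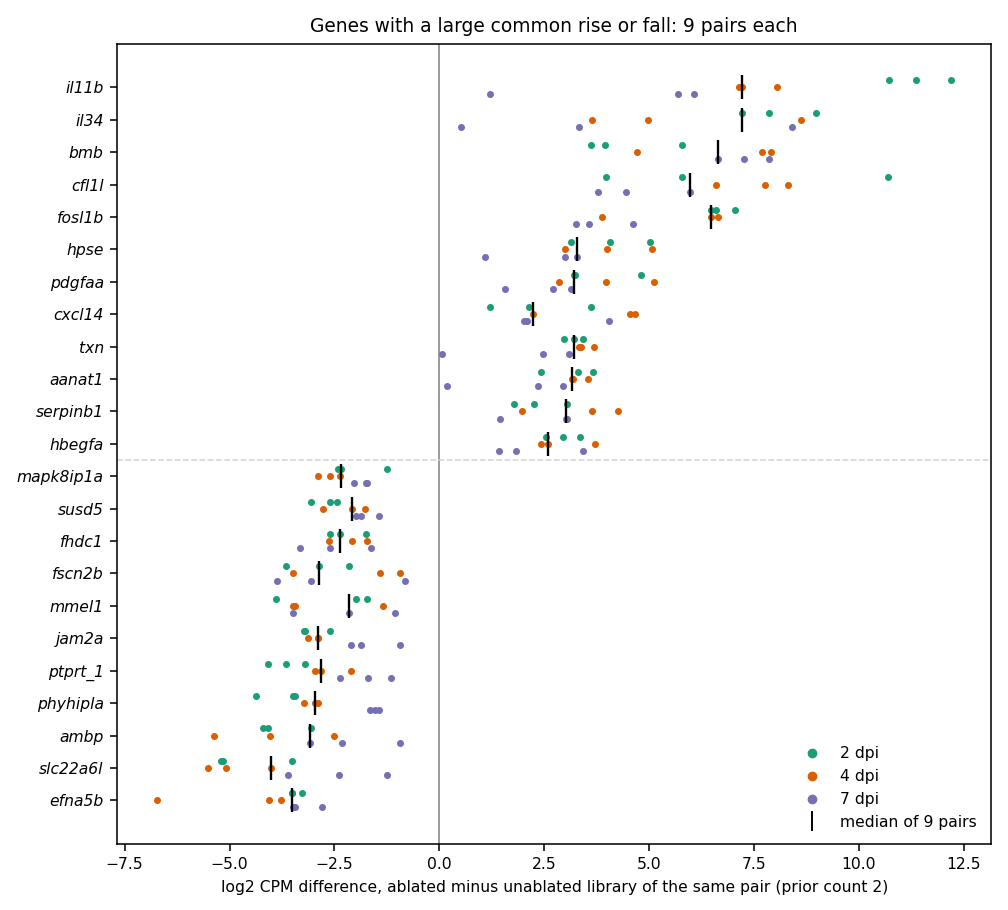
Log2 CPM differences (horizontal axis, ablated minus unablated library of the same pair, prior count 2) of genes with large rises (upper rows) and large falls (lower rows) in the retained set. Each point is a pair coloured by time and the black bar is the median of 9 pairs. All points of a gene lie on the same side of 0, as the choice of these genes required. Those of jam2a and hbegfa lie nearer to 0 at 7 dpi than at 2 dpi in the median.

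Several of the largest rises in the plot of pair differences were genes of secreted signals. il11b encodes an interleukin of the gp130 receptor family (ENSDARG00000058557, chromosome 19, 10509147 to 10520900 of GRCz10). Its level lay between 0.0711 and 256 CPM with a median of 14.2 CPM in ablated libraries, against 0 to 0.228 CPM with a median of 0 in unablated libraries, a log2 change of 9.88 (SE 0.83, adjusted p = 0.00027). At 2 dpi the ablated libraries held 91.5, 142 and 256 CPM and the unablated libraries held no count. Ablated 7 dpi replicate 1, at 0.0711 CPM, was the only ablated library within the unablated range. hbegfa, an epidermal growth factor receptor ligand (ENSDARG00000075121, chromosome 14, 6742203 to 6745213), lay between 31.8 and 158 CPM with a median of 47.3 CPM in ablated libraries, against 3.01 to 21.1 CPM with a median of 11.9 CPM in unablated libraries. The groups did not overlap, and the log2 change was 2.70 (SE 0.25, adjusted p = 0.00031), with values of 2.95, 2.91 and 2.21 at 2, 4 and 7 dpi.

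Other ligands of the retained set act on mesenchymal or immune cells. pdgfaa, a platelet-derived growth factor, stood at 7.23 to 93.6 CPM (median 36.1) in ablated and 1.07 to 31.5 CPM (median 3.31) in unablated libraries. It was higher in 9 of 9 pairs, as its choice required, with a log2 change of 3.41 (SE 0.35, adjusted p = 0.00041). The groups overlapped through unablated 7 dpi replicate 3, which held 31.5 CPM beside 93.6 CPM in its ablated partner. il34, a ligand of the macrophage colony stimulating factor receptor, stood at 0.0237 to 30.9 CPM (median 21.2) in ablated and 0 to 2.26 CPM (median 0) in unablated libraries (log2 change 6.82, SE 1.04, adjusted p = 0.0017). Here too the lowest ablated value, 0.0237 CPM, was that of 7 dpi replicate 1. The chemokine gene cxcl14 stood at 29.8 to 666 CPM (median 123) in ablated and 2.48 to 49.6 CPM (median 14.3) in unablated libraries (log2 change 2.95, SE 0.40, adjusted p = 0.001). Its ablated libraries held 29.8 to 33.1 CPM at 2 dpi and 123 to 666 CPM at 4 dpi.

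Of 21 tested cytokine and chemokine genes (34 listed), 5 rose and none fell, against 8.42% and 7.75% of all genes, and their median log2 change was 0.82 against -0.03 for all genes. Their summed level was higher in 9 of 9 pairs, and its median was 839 CPM with ablation and 170 CPM without. That sum includes cxcl18b, whose own medians were 312 CPM with ablation and 27.3 CPM without. It also includes cxcl14, with medians of 123 and 14.3 CPM. Each of these genes was itself higher in 9 of 9 pairs, and the sum without them was not tested. The 5 genes that rose were il34, cxcl14, cxcl18b, cxcl8a and ccl34a.4. cxcl18b, a neutrophil-attracting chemokine, had a log2 change of 3.74 (SE 0.69, adjusted p = 0.0045), which was 5.21, 4.56 and 0.91 at 2, 4 and 7 dpi. Of 29 tested genes of gp130 and JAK/STAT signalling, 7 rose and 1, pim1, fell (median 0.47). lepb, a leptin that signals through a gp130-like receptor, held 0 to 9.37 CPM (median 2.62) in ablated libraries and a single count in all 9 unablated libraries. The ratio of summed counts, scaled to depth, was 898 with a 95% counting interval of 161 to 35518. socs3b, the feedback inhibitor of this pathway, had a log2 change of 1.82 (SE 0.43, adjusted p = 0.014), with 2.80, 2.56 and -0.01 at 2, 4 and 7 dpi. These calls outside the retained set were lost without 4 dpi (adjusted p = 0.12 for cxcl18b, 0.06 for lepb and 0.22 for socs3b) and, for cxcl18b and socs3b, without 2 dpi (0.066 and 0.15). Without the blocks socs3b had an adjusted p of 0.067. The call of cxcl8a was lost without 4 dpi (adjusted p = 0.17), without 2 dpi (0.072) and without the blocks (0.20). At 7 dpi replicate 3 cxcl8a held 13.0 CPM in the ablated and 31.3 CPM in the unablated library.

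Of 17 tested ligands, receptors and feedback genes of the epidermal growth factor family, hbegfa and nrg1 rose and spry2 fell, near the shares of all genes. nrg1, a neuregulin that binds ErbB receptors, stood at 7.18 to 32.1 CPM (median 17) in ablated and 0.194 to 6.56 CPM (median 0.988) in unablated libraries, with no overlap (log2 change 3.66, SE 0.52, adjusted p = 0.0012). spry2, which encodes a feedback inhibitor of receptor tyrosine kinase signalling, had a log2 change of -1.14 (SE 0.23, adjusted p = 0.0073). Without 4 dpi their adjusted p was 0.055 and 0.08, and that of spry2 was 0.067 without 2 dpi. hpse, the heparan sulfate degrading enzyme heparanase, stood at 3.15 to 39.9 CPM (median 19.6) in ablated and 0.233 to 4.92 CPM (median 1.68) in unablated libraries (log2 change 3.56, SE 0.40, adjusted p = 0.00051). Of 18 tested interferon response genes 2 rose, isg15 and irf9, and none fell, which is near the shares of 8.42% and 7.75% over all genes. isg15, a ubiquitin-like protein made under interferon, stood at 5.02 to 65.3 CPM (median 28.2) in ablated and 0 to 3.48 CPM (median 0.798) in unablated libraries, with log2 changes of 5.47, 5.48 and 4.51 at 2, 4 and 7 dpi (common adjusted p = 0.0021, and 0.072 without 4 dpi).

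Fos family genes moved in opposite directions. fosl1b, a Fos-related subunit of the AP-1 transcription factor (ENSDARG00000079373, chromosome 21, 25577822 to 25581570), stood at 0.592 to 94.6 CPM (median 14.2) in ablated and 0 to 0.66 CPM (median 0.267) in unablated libraries, a log2 change of 5.98 (SE 0.58, adjusted p = 0.00033). fosab, the zebrafish c-Fos gene that is switched on within minutes of a stimulus, stood at 53 to 353 CPM (median 229) in ablated and 174 to 1737 CPM (median 802) in unablated libraries, a log2 change of -1.60 (SE 0.24, adjusted p = 0.0016). It was lower in 9 of 9 pairs, although the 2 groups overlapped across days. Of 35 tested immediate early genes, which respond to a stimulus without new protein synthesis, 12 fell and none rose (median -0.44). Of all genes 7.75% fell and 8.42% rose. fosl1b was not a member of this list, whose members were chosen with earlier results of these data known. The summed level of the immediate early genes was lower in 9 of 9 pairs.

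The 4 immediate early genes of the retained set were fosab, btg2, egr1 and dusp2. btg2, which encodes an anti-proliferative transcriptional cofactor (ENSDARG00000020298, chromosome 22, 756789 to 760665), stood at 36 to 258 CPM (median 159) in ablated and 243 to 1185 CPM (median 474) in unablated libraries. Its log2 change was -1.96 (SE 0.22, adjusted p = 0.00051), and -2.09, -1.94 and -1.83 at 2, 4 and 7 dpi. The zinc finger gene egr1 stood at 58.4 to 240 CPM (median 141) in ablated and 212 to 1265 CPM (median 286) in unablated larvae (log2 change -1.59, SE 0.22, adjusted p = 0.0011). dusp2, a phosphatase that turns off MAP kinases, had a log2 change of -1.97 (SE 0.28, adjusted p = 0.0012). jdp2b, which encodes a repressor of the AP-1 family and was chosen after its values were seen, had a log2 change of -1.45 (SE 0.22, adjusted p = 0.0016). Each of these 5 genes was lower in the ablated library of all 9 pairs.

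**Figure D2:**
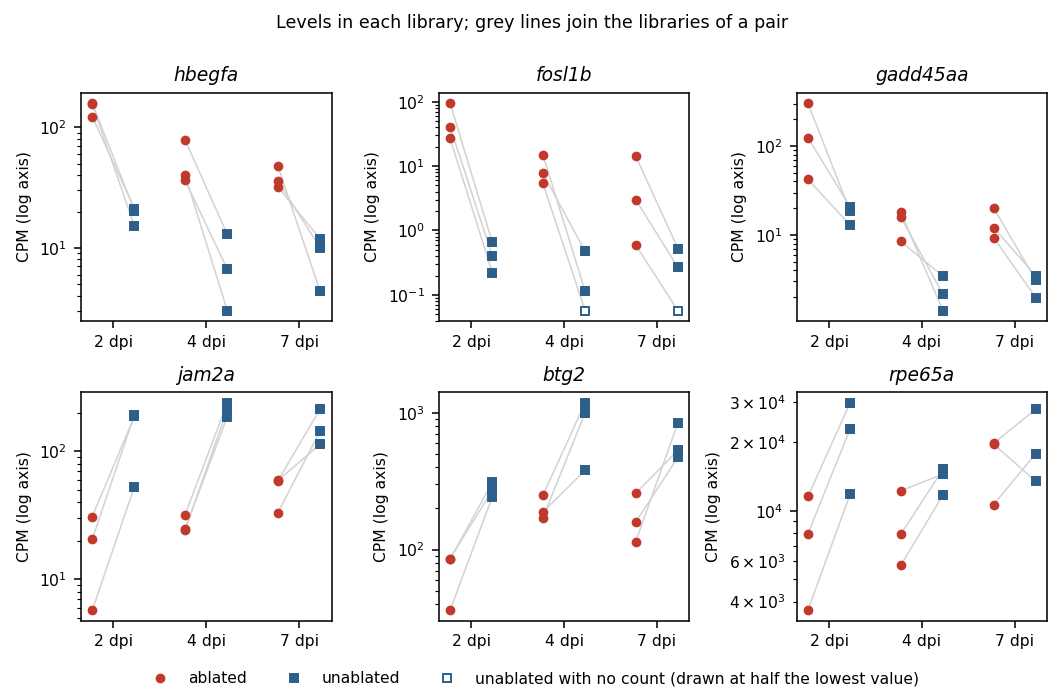
Level of 6 genes in each library (CPM, log axis) at 2, 4 and 7 dpi, with ablated libraries as circles on the left and unablated libraries as squares on the right of each time, joined by pair. hbegfa, fosl1b and gadd45aa are higher and jam2a and btg2 are lower in the ablated library of all 9 pairs, and rpe65a is lower in 8 of 9. For hbegfa, fosl1b and jam2a the choice of genes required the same direction in all 9 pairs.

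Genes of growth arrest and the DNA damage response split between rises and falls. Of 31 tested, 9 rose and 6 fell, against 8.42% and 7.75% of all genes, and 5 belonged to the retained set. gadd45aa, a DNA damage and stress sensor, stood at 8.46 to 304 CPM (median 17.9) in ablated and 1.41 to 20.7 CPM (median 3.44) in unablated libraries. Its log2 changes were 2.77, 2.63 and 2.25 at 2, 4 and 7 dpi and 2.55 in common (SE 0.29, adjusted p = 0.00051), and the plot of levels by library shows all 9 ablated values above their partners. gadd45ab, its paralog, had a log2 change of 2.15 (SE 0.27, adjusted p = 0.00077). casp8, the initiator caspase of death receptor signalling, had a log2 change of 1.92 (SE 0.25, adjusted p = 0.00089), and is named here after its values were seen.

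The cell cycle inhibitor gene cdkn1bb (p27) moved the other way. It stood at 119 to 370 CPM (median 181) in ablated and 283 to 820 CPM (median 385) in unablated libraries, a log2 change of -1.19 (SE 0.14, adjusted p = 0.00051). The stress kinase gene plk3 had a log2 change of -1.63 (SE 0.21, adjusted p = 0.00087, and 0.055 without 4 dpi). Of 61 tested mitosis genes edgeR called none, and 0 had an unadjusted p under 0.05, while DESeq2 called 1. Of 50 tested DNA replication genes 1, gins1, fell and none rose, below the 7.75% and 8.42% of all genes. The spread of these lists was wide. The summed level of mitosis genes lay between 63.6 and 1382 CPM in ablated libraries and between 49.4 and 1910 CPM in unablated ones. The median log2 change of mitosis genes was -2.10 at 2 dpi, 0.47 at 4 dpi and 1.99 at 7 dpi, and none of these genes differed between times by the test of that difference. The biological coefficient of variation over all genes was 64.8%, which limits what could be detected.

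Most genes of the mitochondrial ribosome rose. Of 73 genes of the mitochondrial ribosome, all tested, 64 rose and none fell, against 8.42% and 7.75% of all genes, and all 73 had positive log2 changes. Their median was 0.85, with 1.33, 0.74 and 0.51 at 2, 4 and 7 dpi, and their summed level was higher in 9 of 9 pairs. mrpl35, mrpl47 and mrps18c belonged to the retained set. mrpl35, a protein of the large subunit, stood at 17.7 to 327 CPM (median 25.6) in ablated and 7.37 to 131 CPM (median 13.3) in unablated libraries (log2 change 1.17, SE 0.15, adjusted p = 0.00092). At 2 dpi it was at 57 to 327 CPM in ablated libraries and at 29.2 to 131 CPM in unablated ones, above the level of any later library, so the groups overlapped across days although each pair differed the same way. mrps18c had an adjusted p of 0.081 without the blocks. At 2 dpi its replicates 1, 2 and 3 held 48.2, 268 and 564 CPM in ablated and 20.5, 100 and 143 CPM in unablated libraries. Replicates 2 and 3 at 2 dpi share a date in their sequencing names and had the lowest library scaling factors (TMM, 0.637 to 0.781). The part of that date in these levels was not tested. timm10, a chaperone of mitochondrial import (chromosome 1, 43689167 to 43693196), stood at 13 to 241 CPM (median 21.3) in ablated and 4.22 to 48.4 CPM (median 7.18) in unablated libraries (log2 change 2.01, SE 0.21, adjusted p = 0.00042). gfer, the sulfhydryl oxidase of the same import route, had a log2 change of 1.90 (SE 0.22, adjusted p = 0.00051) and was chosen after its values were seen.

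Of 92 tested nuclear genes of the respiratory chain 44 rose and none fell, against 8.42% and 7.75% of all genes. The median of this list was 0.44, with 0.40, 0.52 and 0.51 at 2, 4 and 7 dpi. ndufab1a, the acyl carrier subunit of complex I, stood at 77.1 to 1216 CPM (median 119) in ablated and 42.8 to 470 CPM (median 66.5) in unablated libraries (log2 change 1.04, SE 0.14, adjusted p = 0.0011, and 0.057 without 4 dpi). Of the 13 protein genes encoded by the mitochondrion edgeR called 0, as did DESeq2, and 0 had an unadjusted p under 0.05 (median 0.02). Of 41 tested proteasome genes 20 rose and none fell, and all 41 had positive values (median 0.57). psmb7, a catalytic core subunit, had a log2 change of 0.82 (SE 0.14, adjusted p = 0.0029). Its values at 2, 4 and 7 dpi were close, at 0.77, 0.88 and 0.82, yet the call was lost without 4 dpi (adjusted p = 0.072) and without the blocks (0.12). Without the blocks, where 6.34% of all genes were called, 26 mitochondrial ribosome genes, 6 respiratory chain genes and 1 proteasome gene were called higher.

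Genes of ribosome assembly had their largest median at 2 dpi. Of 77 tested genes of ribosome biogenesis, the making of ribosomes in the nucleolus, 41 rose and none fell, against 8.42% and 7.75% of all genes. The medians of this list were 2.38, 0.88 and 0.20 at 2, 4 and 7 dpi. polr1d, a subunit shared by RNA polymerases I and III (chromosome 14, 8771300 to 8779335), was the member of the retained set. It stood at 10.6 to 527 CPM (median 26.4) in ablated and 4.91 to 60.5 CPM (median 8.04) in unablated libraries, a log2 change of 1.92 (SE 0.20, adjusted p = 0.00044). dkc1, the pseudouridine synthase dyskerin, had a log2 change of 1.69 (SE 0.28, adjusted p = 0.0023, and 0.058 without 4 dpi). Of 79 cytosolic ribosomal protein genes 16 rose and 1, rps8b, fell (median 0.26), and none was called without the blocks. The summed level of ribosomal protein genes was higher in 7 of 9 pairs.

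Stress and chaperone lists are read here against the 8.42% of all genes called higher and the 7.75% called lower. Without the blocks 6.34% of all genes were called. Of 40 tested chaperones of the endoplasmic reticulum 16 rose and none fell (6 and 0 without the blocks), with the largest median, 1.11, at 4 dpi. nucb2b, a calcium-binding nucleobindin, stood at 23.9 to 109 CPM (median 43.8) in ablated and 1.43 to 23.3 CPM (median 7.61) in unablated libraries (log2 change 2.64, SE 0.48, adjusted p = 0.0042). Its effect was 2.22, 4.53 and 1.26 at 2, 4 and 7 dpi, and its adjusted p without 4 dpi was 0.053. Of 50 tested cytosolic and mitochondrial chaperones 19 rose and 2 fell (9 and 0 without the blocks), with medians of 1.21, 0.70 and -0.32 at the 3 times. ptges3b, the Hsp90 cochaperone p23, was in the retained set and stood at 62.8 to 1061 CPM (median 108) in ablated and 12.4 to 301 CPM (median 37.7) in unablated libraries (log2 change 1.86, SE 0.25, adjusted p = 0.00098). Of 40 tested genes of the integrated stress response and serine synthesis 13 rose and 6 fell (5 and 1 without the blocks). psat1, an enzyme of serine synthesis, had a log2 change of 1.54 (SE 0.26, adjusted p = 0.0028, and 0.056 without 4 dpi).

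txn, the protein disulfide reductase thioredoxin (chromosome 7, 24086074 to 24093669), stood at 91.2 to 7946 CPM (median 406) in ablated and 29.6 to 856 CPM (median 77) in unablated libraries. It was 3.20, 3.47 and 1.94 higher on the log2 scale at 2, 4 and 7 dpi (common value 2.92, SE 0.33, adjusted p = 0.00051), and the pair of 7 dpi replicate 1 differed least, with 91.2 CPM in the ablated and 86.5 CPM in the unablated library. pgd, an NADPH-making enzyme of the pentose phosphate pathway, had a log2 change of 1.52 (SE 0.20, adjusted p = 0.00095) and was chosen after its values were seen. Of 37 tested genes of glycolysis and lactate transport 11 rose and 6 fell, against 8.42% and 7.75% of all genes. slc2a1b, a glucose transporter, had a log2 change of -1.48 (SE 0.23, adjusted p = 0.0019) and pgam1a, a glycolytic mutase, one of 1.46 (SE 0.24, adjusted p = 0.0025). Without 4 dpi their adjusted p was 0.06 and 0.084.

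Genes of the circadian clock fell in number. Of 41 tested, 20 fell and 4 rose, against 7.75% and 8.42% of all genes, so that the rises were near that share. Medians were -0.73, -0.99 and -0.72 at 2, 4 and 7 dpi, and the summed level was lower in 9 of 9 pairs. The clock turns on alternating transcription of activators and repressors and runs in most zebrafish cells, where light can set it directly. bhlhe40, a repressor of the clock, stood at 41 to 470 CPM (median 175) in ablated and 108 to 752 CPM (median 572) in unablated larvae (log2 change -1.60, SE 0.21, adjusted p = 0.00095). The repressor gene cry2 had a log2 change of -1.03 (SE 0.15, adjusted p = 0.0012) and ciartb, another repressor, one of -1.37 (SE 0.20, adjusted p = 0.0015). The activator gene arntl1b, a Bmal1 homolog chosen after its values were seen, rose by 2.15 on the log2 scale (SE 0.38, adjusted p = 0.0033). It stood at 2.18 to 13.2 CPM (median 6.56) in ablated and 0.233 to 3.04 CPM (median 2.54) in unablated libraries.

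aanat1, which encodes the timed enzyme of melatonin synthesis, was the clock-list gene of the retained set. It stood at 2.89 to 50.4 CPM (median 18.3) in ablated and 0.978 to 5.36 CPM (median 2.52) in unablated libraries (log2 change 2.84, SE 0.34, adjusted p = 0.00071). Without 4 dpi the adjusted p of aanat1 was 0.04998, just under the threshold. It was 0.054 for bhlhe40, 0.059 for cry2, 0.055 for ciartb and 0.06 for arntl1b. Without the blocks 11 clock genes fell and 2 rose. The labels give no hour of collection for either library of a pair, and the part of such an hour in these differences was not tested.

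**Figure D3:**
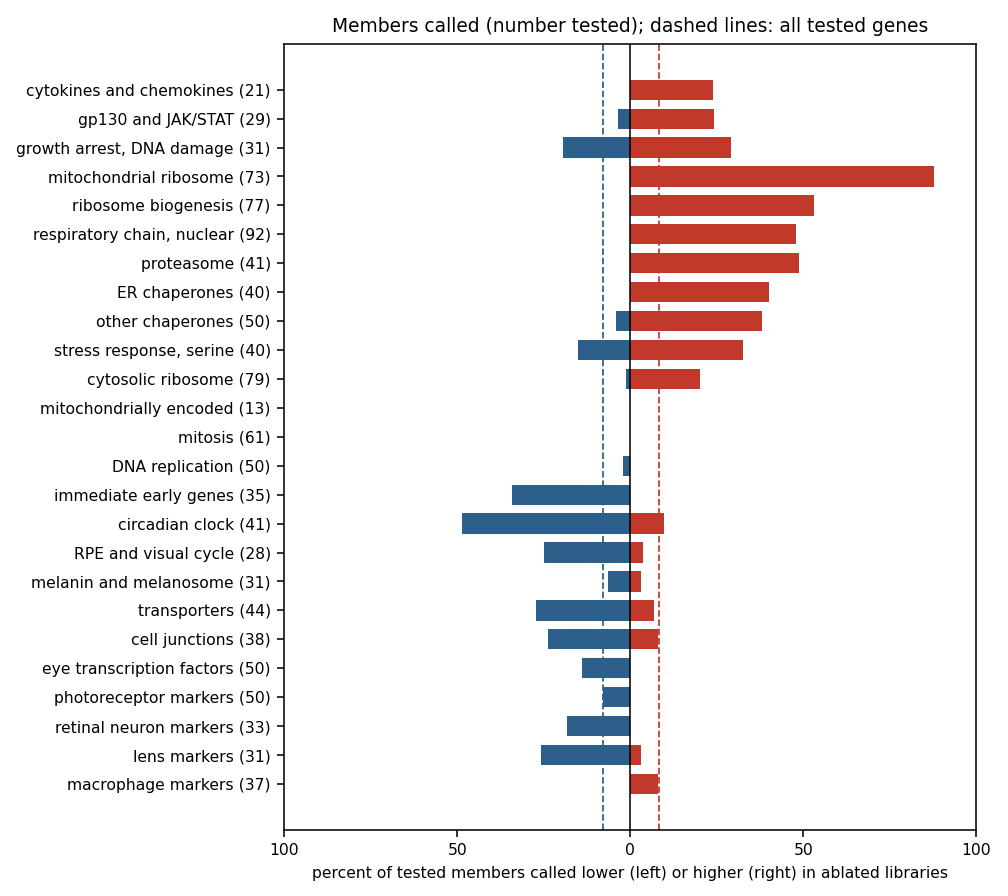
Percent of tested members of 25 gene lists that were called lower (bars to the left) or higher (bars to the right) in ablated libraries in the common effect, with the number tested in brackets. Dashed lines mark all tested genes, 7.75% lower and 8.42% higher. The mitochondrial ribosome reaches furthest to the right and the circadian clock furthest to the left.

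Genes of the mature RPE fell in part. Of 28 tested genes of RPE identity and the visual cycle 7 fell and 1, rdh10b, rose (median -0.53), against 7.75% and 8.42% of all genes. Without the blocks, where 6.34% of all genes were called, 3 fell and 1 rose. The summed level of this list was lower in 8 of 9 pairs. rpe65a, which encodes the retinoid isomerohydrolase that makes the visual chromophore's precursor (ENSDARG00000007480, chromosome 2, 2316199 to 2331029), stood at 3665 to 19711 CPM (median 10636) in ablated and 11692 to 29670 CPM (median 15172) in unablated libraries. Its log2 change was -0.84 (SE 0.22, adjusted p = 0.021), and -1.53, -0.74 and -0.24 at 2, 4 and 7 dpi. Its adjusted p was 0.13 without the blocks, 0.24 without 2 dpi and 0.17 without 4 dpi. It was also above 0.05 when the pairs of replicates 1, 2 or 3 at 2 dpi (0.061, 0.055 and 0.053) or of replicates 1 or 3 at 4 dpi (0.064 and 0.055) were left out. otx2, a transcription factor that maintains RPE fate, stood at 157 to 367 CPM (median 213) in ablated and 328 to 733 CPM (median 476) in unablated larvae (log2 change -1.07, SE 0.14, adjusted p = 0.00095). lratb, the enzyme that stores retinol as esters, had a log2 change of -1.20 (SE 0.16, adjusted p = 0.00099). The adjusted p without 4 dpi was 0.053 for otx2 and 0.056 for lratb. rlbp1b, the retinaldehyde carrier, was not called (log2 change -0.59, adjusted p = 0.16).

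Of 31 tested genes of melanin and melanosomes 1 rose and 2, oca2 and rab27a, fell, no more than the 8.42% and 7.75% of all genes. The gene that rose was rab32a, a regulator of melanosome transport (log2 change 1.36, SE 0.18, adjusted p = 0.00092, and 0.052 without 4 dpi). The median of the list was -0.08. dct, an enzyme of melanin synthesis, stood at a median of 9931 CPM in ablated libraries and 14292 CPM in unablated libraries, with a log2 change of -0.13 (SE 0.17, adjusted p = 0.66). pmela, a structural protein of the melanosome, was lower in 9 of 9 pairs and was not called, with a median of 6750 CPM in ablated libraries and 9428 CPM in unablated libraries (log2 change -0.31, SE 0.11, adjusted p = 0.077). dct and pmela were chosen after their values were seen.

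The largest falls included transport and junction genes. slc22a6l, a member of the organic anion transporter family (chromosome 21, 28441968 to 28457627), stood at 0.488 to 47.8 CPM (median 0.843) in ablated and 6.25 to 114 CPM (median 20) in unablated libraries, a log2 change of -4.07 (SE 0.48, adjusted p = 0.00063). The highest ablated value was that of 7 dpi replicate 1, whose unablated partner held 114 CPM. Of 44 tested transporter genes known from the RPE, 12 fell and 3 rose (5 and 3 without the blocks), against 7.75% and 8.42% of all genes. ca9, a carbonic anhydrase of the cell surface, stood at 5.96 to 74.8 CPM (median 9.72) in ablated and 18.2 to 246 CPM (median 70.9) in unablated libraries (log2 change -2.10, SE 0.24, adjusted p = 0.00052). atp1b3a, a sodium pump subunit chosen after its values were seen, had a log2 change of -2.05 (SE 0.29, adjusted p = 0.0012). Of 38 tested junction genes 9 fell and 3 rose (3 and 2 without the blocks). jam2a, a junctional adhesion molecule (ENSDARG00000058996, chromosome 1, 599405 to 613068), stood at 5.73 to 59.2 CPM (median 30.9) in ablated and 53 to 239 CPM (median 188) in unablated libraries, with log2 changes of -3.01, -2.98 and -1.64 at 2, 4 and 7 dpi (common adjusted p = 0.00033).

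ambp, the precursor of alpha-1-microglobulin and bikunin, stood at 8.58 to 276 CPM (median 50.5) in ablated and 160 to 1481 CPM (median 478) in unablated larvae (log2 change -3.31, SE 0.40, adjusted p = 0.00072). efna5b, a membrane-bound ephrin ligand, stood at 0 to 5.18 CPM (median 0.213) in ablated and 0.469 to 36.4 CPM (median 3.6) in unablated libraries (log2 change -4.32, SE 0.53, adjusted p = 0.00072). foxg1b, a forkhead transcription factor of the developing eye and forebrain that was chosen after its values were seen, stood at 19.6 to 274 CPM (median 87.6) in ablated and 86.9 to 503 CPM (median 328) in unablated libraries (log2 change -1.80, SE 0.17, adjusted p = 0.00033). col9a1a, a chain of collagen IX, was the collagen of the retained set (log2 change -2.10, SE 0.28, adjusted p = 0.00095). Of 31 tested collagen genes 2 fell and 1 rose, no more than the 7.75% and 8.42% of all genes. mapk8ip1a, a scaffold of JNK signalling, fell by 2.16 on the log2 scale (SE 0.18, adjusted p = 0.00027).

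Pathway lists that are often followed in eye regeneration were mixed, and are read here against the 7.75% of all genes called lower and the 8.42% called higher. Of 46 tested Wnt genes 8 fell and 4 rose, and the rises were near the share of all genes. sfrp5, a secreted Wnt antagonist, had a log2 change of -2.12 (SE 0.36, adjusted p = 0.0029), and fzd7a, a Wnt receptor, one of 1.01 (SE 0.18, adjusted p = 0.0032). Of 36 tested retinoic acid genes 6 fell and 2 rose, among them cyp1b1, a cytochrome with a log2 change of -3.82 (SE 0.65, adjusted p = 0.0029). Of 50 tested eye transcription factor genes 7 fell (2 without the blocks), none rose and 44 had negative values, with medians of -2.85, -1.21 and 0.28 at 2, 4 and 7 dpi. lhx2b, a homeobox gene of eye development, had a log2 change of -1.08 (SE 0.21, adjusted p = 0.0059). Without 4 dpi the adjusted p was 0.071 for sfrp5, 0.066 for fzd7a, 0.057 for cyp1b1 and 0.12 for lhx2b.

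Markers of other cell types are read here against the 7.75% of all genes called lower and the 8.42% called higher. Of 33 tested markers of retinal neurons 6 fell and none rose (median -1.09), and their sum was lower in 8 of 9 pairs, at 157 to 1193 CPM in ablated libraries and 360 to 1054 CPM in unablated ones. The neuronal RNA-binding protein gene elavl3 stood at 0 to 4.09 CPM (median 0.299) in ablated and at least 1.48 CPM (median 4.94) in unablated libraries (log2 change -3.22, SE 0.70, adjusted p = 0.0093), but its adjusted p was 0.06 without the blocks, 0.11 without 2 dpi and 0.08 without 4 dpi. snap25a, the other defining neuron marker, was not called (log2 change -0.06). Of 50 tested photoreceptor markers 4 fell, which is near the share of all genes, and none rose. Negative values were held by 39 of them. Their median was -1.07, with -2.32, 0.33 and -1.05 at 2, 4 and 7 dpi, and their sum was lower in 6 of 9 pairs. rho, the rod opsin, stood at 3.02 to 1634 CPM (median 15.4) in ablated and 21 to 1421 CPM (median 85.4) in unablated libraries and was not called (adjusted p = 0.093), though it was without 4 dpi (0.042), without replicate 2 at 4 dpi (0.032) and without replicate 3 at 4 dpi (0.037). Of 31 tested lens markers 8 fell and 1 rose (2 and 1 without the blocks), with a sum of 5.31 to 26 CPM in ablated libraries and 11 to 399 CPM in unablated ones. Without the blocks 2 markers of retinal neurons were called lower.

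Of 23 tested markers of Mueller glia, the support cells of the retina, 2 fell and 1, the apolipoprotein gene apoeb, rose, near the shares of all genes. Positive values were held by 13 of them (median 0.23), with medians of -1.61, 0.81 and 0.55 at 2, 4 and 7 dpi. Their sum, which includes glula, was lower in 8 of 9 pairs. It lay at 1139 to 13233 CPM (median 6371) in ablated libraries and 4610 to 18942 CPM (median 7862) in unablated ones. glula, the glutamine synthetase that defines these cells here, stood at 229 to 3942 CPM (median 1908) in ablated and 1079 to 14296 CPM (median 5118) in unablated larvae, lower in 9 of 9 pairs (log2 change -1.69, SE 0.22, adjusted p = 0.00095, and 0.054 without 4 dpi). cx43, a gap junction connexin of the same list, stood at 63.7 to 652 CPM (median 341) in ablated and 202 to 2717 CPM (median 792) in unablated larvae (log2 change -1.40, SE 0.15, adjusted p = 0.00047). The other defining marker, gfap, was at most 1.6 CPM in ablated libraries and 2.1 CPM in unablated ones. Of 24 tested endothelial markers 1 fell and 1 rose, below the shares of all genes, and 10 had positive and 14 negative values (median -0.27). Their sum was lower in 9 of 9 pairs, with a median of 43.7 CPM in ablated libraries and 151 CPM in unablated ones. That sum includes gpr182, whose unablated median alone was 120 CPM. gpr182, an orphan receptor of endothelium, stood at 0.125 to 87.5 CPM (median 1.99) in ablated and 15.7 to 312 CPM (median 120) in unablated larvae (log2 change -5.37, SE 0.78, adjusted p = 0.0014, and 0.07 without 4 dpi). The defining endothelial genes kdrl and cdh5 were at most 3.68 and 2.44 CPM in ablated libraries and 4.54 and 0.958 CPM in unablated ones. cdh5 was higher in 8 of 9 pairs and was not called (adjusted p = 0.43). Of 32 tested keratinocyte and cornea markers 4 rose and 3 fell. epcam, an epithelial adhesion molecule of that list, was higher in 9 of 9 pairs (log2 change 6.23, SE 1.33, adjusted p = 0.0086), but its adjusted p was 0.14 without the blocks, 0.058 without 2 dpi and 0.079 without 4 dpi. These values stand beside the falls of eye transcription factors, jam2a and the RPE genes, and the part of admixed cells in them was not tested.

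Of 37 tested macrophage and microglia markers 3 rose, near the 8.42% of all genes, and none fell. Positive values were held by 33, and none was called without the blocks. Of the 3 that rose, cd74b had a median of only 0.15 CPM in ablated libraries and 0 in unablated ones. The 37 markers had a median log2 change of -0.99 at 2 dpi, 3.17 at 4 dpi and 2.08 at 7 dpi. Their sum was 194 to 9222 CPM (median 1151) in ablated libraries and 69.4 to 1096 CPM (median 264) in unablated ones, higher in 7 of 9 pairs. Within that sum apoeb, also on the Mueller glia list, alone stood at 75 to 7148 CPM (median 1052) in ablated and 5.03 to 803 CPM (median 95.2) in unablated libraries. Its log2 change was 3.14 (SE 0.98, adjusted p = 0.047, and 0.12 without the blocks, 0.39 without 4 dpi and 0.11 without 7 dpi). The call of apoeb held in 3 of the 9 fits that left out a single pair. The defining gene mpeg1.1 was at 0 in 3 ablated and 3 unablated libraries and otherwise at up to 123 CPM in ablated libraries and 9.51 CPM in unablated ones (adjusted p = 0.56). csf1ra and ptprc were at most 1.24 and 5.38 CPM in ablated libraries and 1.83 and 2.85 CPM in unablated ones. Of 18 tested neutrophil markers 3 rose (1 without the blocks), 0 fell and 14 had positive values, with medians of 1.05, 1.15 and 0.60 at 2, 4 and 7 dpi. Their sum was higher in 8 of 9 pairs, with a median of 227 CPM in ablated libraries and 138 CPM in unablated ones. Among them mpx was at 0 in 4 ablated and 5 unablated libraries and lyz at 0 in 1 ablated and 7 unablated libraries. The part of these cells in the rises of cytokine genes was not tested.

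**Figure D4:**
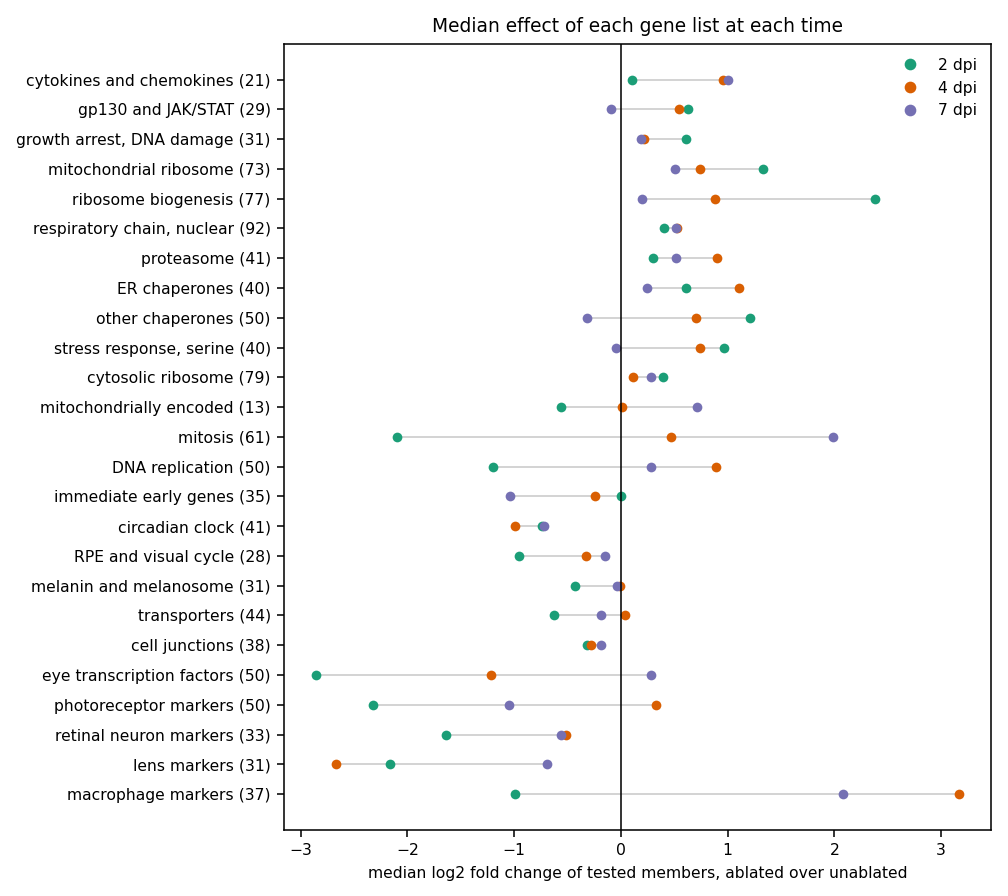
Median log2 change (horizontal axis, ablated over unablated) of the tested members of 25 gene lists at 2, 4 and 7 dpi, with the number tested in brackets. Points of the respiratory chain, circadian clock and junction lists lie close together, while those of ribosome biogenesis, mitosis, eye transcription factors and macrophage markers lie far apart.

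Whether the ablation effect itself differed between times was tested gene by gene. It did for 371 of 20093 genes (1.85%), of which 132 also had a common effect, and 313 had their largest effect at 2 dpi. Of the ribosome biogenesis genes 34 of 77 were among them. npm1a, the nucleolar chaperone nucleophosmin (chromosome 10, 22064600 to 22075667), held 2321, 1628 and 1446 CPM in ablated libraries and 101, 89.5 and 146 CPM in unablated ones at 2 dpi. At 7 dpi it held 88.7, 264 and 479 CPM in ablated libraries and 73.9, 166 and 403 CPM in unablated ones. Its log2 changes were 4.01, 2.06 and 0.39 (adjusted p of the difference between times = 0.015). cbx7a, a Polycomb protein, was not called in common (adjusted p = 0.4) and log2 changes of 4.82, 0.16 and -0.64 (adjusted p of the difference = 0.0013). At 2 dpi it held 968, 342 and 530 CPM in ablated libraries and 18.9, 14.9 and 27.5 CPM in unablated ones. Of the 118 retained genes 1, phyhipla, differed between times, with falls of 3.77, 3.03 and 1.54 on the log2 scale at 2, 4 and 7 dpi (adjusted p of the difference = 0.02). These differences rested on the 2 dpi pairs. When any single 2 dpi pair was left out 2 or 3 genes were called, with cbx7a each time, and without the blocks edgeR called none, where 1284 genes had an unadjusted p under 0.05. With the blocks 3209 genes did, and DESeq2 called 2056.

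**Figure D5:**
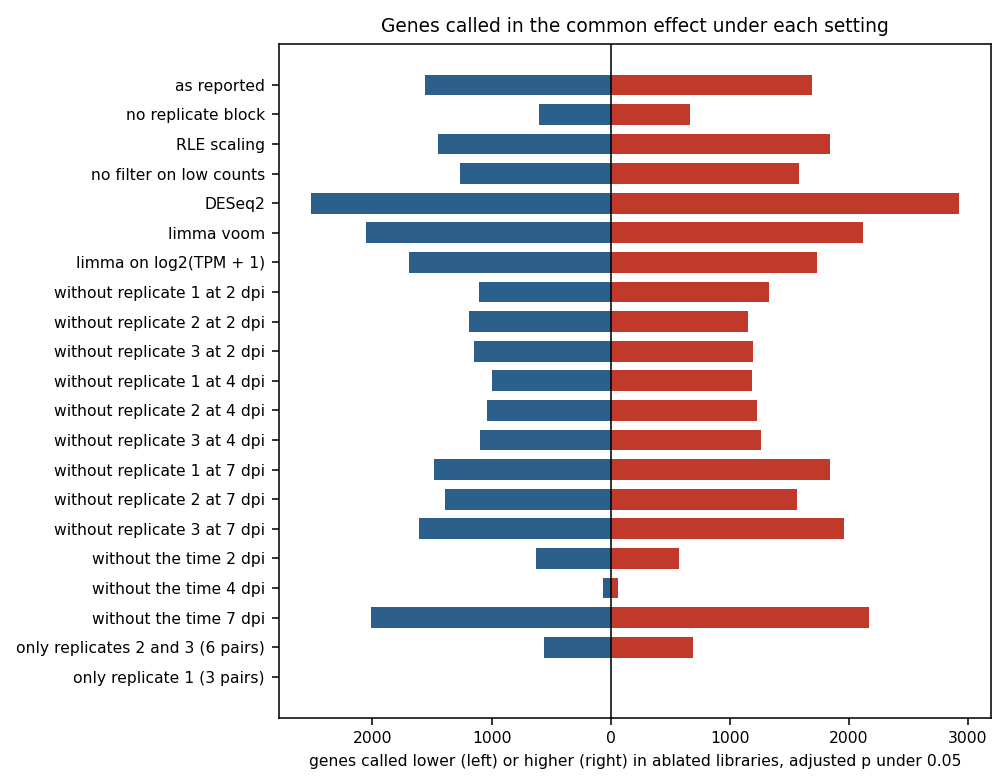
Number of genes called lower (bars to the left) and higher (bars to the right) in ablated libraries under each way of fitting the common effect. The fit as reported gives 1558 and 1691, the fit without 4 dpi 65 and 63, and the fit of the 3 undated pairs 0 and 1.

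Sequencing names split the pairs. Those of replicates 2 and 3 hold a date that is shared within a pair, and those of replicate 1 hold none. A date can also cover several pairs: replicates 2 and 3 at 2 dpi share a date, as do replicate 2 at 4 dpi and replicate 2 at 7 dpi. In the 6 dated pairs alone 1250 genes were called, with all 118 retained genes among them, a count that their choice from these libraries also favours. In the 3 undated pairs alone 1 gene was called, the lipase gene lipib, so that no other call given here holds in those pairs taken alone. The log2 changes of the retained genes had a median size of 1.76 in the dated and 1.71 in the undated pairs and the same signs, which their choice from these libraries favours. il11b, hbegfa and jam2a had log2 changes of 9.05, 2.19 and -2.46 in the undated pairs (adjusted p = 0.25, 0.28 and 0.3).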

How the data were processed

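RNA of sorted eGFP-positive cells was sequenced for 18 libraries, 9 ablated and 9 unablated, in 3 tables by time that were joined by gene identifier. The authors deposited total read counts per gene, not normalized, and TPM values (per gene length and library). The build was GRCz 10 per the submitters' processing notes, and aligner, counter, annotation release and strand setting were not named in any source used here, so overlapping genes and near-identical copies may share reads. CPM is a count divided by the library's TMM-scaled total.

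Of 34326 genes, 20093 passed edgeR's filterByExpr. edgeR 4.0.16 (R 4.3.3; TMM, robust quasi-likelihood fit) estimated a single ablation effect with the 9 pairs as blocks (8 residual degrees of freedom), and a second fit with an effect per time tested whether times differed (6 degrees of freedom). Pairs came from the replicate numbers; all 9 same-numbered pairs had deviations correlated above 0.1 (r = 0.187 to 0.593, other combinations -0.44 to 0.183). Log2 pair differences used a prior count of 2. Each SE was calculated back from the test, as the size of the log2 change divided by the square root of F. For genes with almost no count in a group, such as il11b, this SE is not a reliable measure of precision. In simulated data of 19305 genes, 50 were changed at each fold, a far smaller share than was called in the real data. The common fit found 18, 44, 80 and 78% of these 2-, 4-, 8- and 16-fold changes with 2 false calls. As the adjustment depends on the share of changed genes, these percentages do not carry over to the real data. Intervals and limits for a count of 0 (3 counts) cover counting error only.

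Members and gene lists were chosen with earlier results of these data known. Genes named are the 12 largest rises and falls and the 6 smallest p-values each way of the retained set (symbols that are not clone names, all 9 pairs alike, group mean of at least 5 CPM), up to 4 called members of each of 51 lists, the defining markers, and genes whose effect differed between times; others are marked as chosen after their values were seen. Some genes that this rule names are not reported here. Alternatives were no replicate block, DESeq2 1.42.0 (with its size factors and, in edgeR, RLE), limma 3.58.1 with voom or log2(TPM + 1), no filter, and leaving out pairs, times or dated names. No column was left unmatched.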

Additional observations from a re-analysis of the deposited data

Results flagged for a closer look

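In 15 of 212 named genes a single pair stood apart from the other 8 in its log2 difference (ablated minus unablated), where chance flags about 1 in 20 groups, which is near this share. 7 dpi replicate 1 stood apart in aanat1 (0.192), txn (0.0752), lepb (0) and hmox1a (-2.70). 7 dpi replicate 3 stood apart in bhlhe40 (-0.0544), atf5a (-0.317) and sfrp5 (-4.78), and 7 dpi replicate 2 in gins1 (0.482). 2 dpi replicate 1 stood apart in the muscle genes actc1b (-10.6) and ckma (-9.91), the keratin gene krt5 (-8.07) and the endothelial cadherin gene cdh5 (-2.73), and 2 dpi replicate 2 in the calcium pump gene atp2b4 (-1.55). 4 dpi replicate 1 stood apart in efna5b (-6.73) and 4 dpi replicate 3 in usp54b (-2.31). Among unablated libraries, 4 dpi replicate 1 had the most genes with a count, 25105, and stood apart from the others.

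The ablation effect differed between times, by edgeR's test of that difference over all genes, for 16 named genes. The adjusted p was 0.00135 for cbx7a, 0.0152 for lamb2l, nfkbiaa, nip7, nle1, npm1a and sat1a.2_1, 0.0154 for cxcl18b, 0.0158 for socs3b and 0.0204 for phyhipla. It was 0.0311 for nucb2b, 0.0397 for slc6a6a, 0.0407 for acta1b, 0.0441 for atp6v1ab and 0.0476 for dhrs9 and wars.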

How the results depend on the processing

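Of 3249 genes called in common (1691 higher, 1558 lower), the number was 1273 (671 and 602) without the replicate block, 5443 (2926 and 2517) with DESeq2, 1199 (572 and 627) without 2 dpi, 128 (63 and 65) without 4 dpi, 1250 (694 and 556) in dated pairs and 1 (1 and 0) in undated pairs. Leaving out a pair gave 2181 to 3568 calls, 1155 to 1958 higher and 993 to 1610 lower (1034 without 4 dpi replicate 2); the cause was not tested. RLE scaling made 55.9% of calls higher. Other settings stayed within 1.5 times of the count reported. For effects that differed between times, 371 genes were called, against 0 without the replicate block, 586 without the filter, and 2056 with DESeq2. That count was 2, 2 and 3 without replicates 1, 2 and 3 at 2 dpi, 216, 234 and 118 without those at 4 dpi, and 185, 421 and 175 without those at 7 dpi. No named gene changed direction in a called value. The 212 named genes include some that were not called in common and so had no call to lose. Of the 212, 70 lost their call without the replicate block, 140 without 4 dpi, 71 without 2 dpi, 59 in dated and 186 in undated pairs. Fits with fewer pairs have fewer degrees of freedom.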
